A study of Mus musculus with 6 samples.

Results

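The sarcomere is anchored at both ends by the Z-disc and held together at its centre by the M-band, and 40 genes of these structures, of titin, of the thin filament and of the proteins that build or turn them over were followed through mouse cardiomyocytes (CMs) around birth. The members were found by symbol, all 40 of them among the 27998 gene rows of the count files. Left-ventricular CMs of C57BL/6J mice, with no allele or drug in any group, were fixed in methanol, stained for myosin heavy chain (MYH1) and for DNA with Hoechst, and sorted into diploid (2n) and tetraploid (4n) fractions at embryonic day 16.5 (E16.5) and at postnatal days 1 (P1) and 5 (P5). Each of the 6 combinations of age and ploidy was sequenced as 1 droplet library (10x, 3′ end). It pooled cells of 3 separate sorts, each from the pups of whole litters. The study describes 3 sorts per age, so the 2n and 4n libraries of an age come from the same litters. A 4n cell by DNA content may be in G2, in mitosis, binucleated, or mononucleated with a polyploid nucleus. A pair of 2n cells that stuck together in the sort carries the same DNA, so the gate alone does not define a cell-cycle state. In sorted P5 CMs the study saw few clumps by microscopy.

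A CM was taken as a cell with at least 1 unique molecular identifier (UMI, 1 captured RNA molecule) of each of Tnni3, Tnnt2, Actc1 and Tnnc1, the markers of the contractile thin filament, which held for 97.8 to 99.4% of the cells. The libraries gave between 3654 and 7340 CMs, with 13070343 to 19665830 UMIs in all and a median of 1831 to 4658 UMIs per CM. The level of a gene is its counts per 1000000 of all the UMIs that a library's CMs held (CPM). The 3′ end of a molecule is counted once, and no correction for gene length was made. Per the study's methods, UMIs in exons and in introns were counted. Whether gene length affects the levels was not tested. With 1 library per group no test between groups was made: each log2 ratio carries an exact 95% interval that covers counting error only, and the spread between animals or sorts is not known. Markers of other heart cells (35 genes of fibroblasts, endothelium, mural cells, immune cells and epicardium) summed to 212 to 387 CPM in the 2n libraries and to 492 to 1220 CPM in the 4n libraries, with all 35 detected in each library apart from Ptprc and Upk1b, which were at 0 UMIs in E16.5-2n. Markers of cycling (24 genes such as Mki67 and Top2a) summed to 171 to 884 CPM in the 2n and 632 to 3982 CPM in the 4n libraries. Erythroid markers (6 genes, mainly of globins) summed to 5127 and 10332 CPM in E16.5-2n and E16.5-4n and to 1649 to 2906 CPM in the later libraries. They differed with age and with ploidy, being higher in 4n at E16.5 and P1. At P5 they were lower in 4n, at 1649 CPM against 2242 CPM in 2n. The part of these markers in the results was not tested. Pairs of libraries shared 17 to 62 cell barcodes.

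In the Z-disc, sarcomeric alpha-actinin cross-links actin filaments of neighbouring sarcomeres, and PDZ-LIM, LIM and titin-capping proteins bind to that lattice. Titin spans from the Z-disc to the M-band, where myomesins and obscurin-like proteins cross-link the thick filaments. Several members, among them Ankrd1, Csrp3 and Fhl2, are also known to move between the sarcomere and the nucleus, and the muscle RING-finger ligases mark sarcomere proteins for turnover.

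Promoter sequences are given for 5 members on which the results below turn, the striated muscle genes Xirp2 and Trim54, which were higher at each later age, Synpo2l and Mybpc3, which were lower in cycling CMs, and titin. They were chosen after their values were seen. Each run holds the 250 bases before the RefSeq start of the gene (GRCm38.p6), 5′ to 3′ on the gene's strand, and lies outside the GENCODE gene. Capitals mark matches on either strand to the MEF2 motif, to the MCAT element (GGAATG) or to a TATA-like run (TATANA); the TATA-like match in Mybpc3 overlaps its MEF2 match.
Xirp2, chr2:67445752-67446001, plus strand: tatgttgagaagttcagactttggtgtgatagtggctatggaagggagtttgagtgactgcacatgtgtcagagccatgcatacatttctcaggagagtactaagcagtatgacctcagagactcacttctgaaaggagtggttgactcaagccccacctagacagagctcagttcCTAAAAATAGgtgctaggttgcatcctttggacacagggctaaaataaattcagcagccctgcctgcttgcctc
Trim54, chr5:31116362-31116611, plus strand: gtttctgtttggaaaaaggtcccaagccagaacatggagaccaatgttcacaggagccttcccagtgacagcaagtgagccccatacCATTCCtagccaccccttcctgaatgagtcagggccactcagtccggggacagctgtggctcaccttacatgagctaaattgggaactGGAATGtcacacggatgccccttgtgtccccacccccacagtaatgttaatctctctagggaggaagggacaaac
Synpo2l, chr14:20668355-20668604, minus strand: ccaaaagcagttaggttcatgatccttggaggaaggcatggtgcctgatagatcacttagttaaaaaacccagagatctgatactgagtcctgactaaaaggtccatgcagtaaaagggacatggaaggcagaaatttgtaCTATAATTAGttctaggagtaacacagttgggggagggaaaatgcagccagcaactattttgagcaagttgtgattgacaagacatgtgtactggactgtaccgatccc
Mybpc3, chr2:91117894-91118143, plus strand: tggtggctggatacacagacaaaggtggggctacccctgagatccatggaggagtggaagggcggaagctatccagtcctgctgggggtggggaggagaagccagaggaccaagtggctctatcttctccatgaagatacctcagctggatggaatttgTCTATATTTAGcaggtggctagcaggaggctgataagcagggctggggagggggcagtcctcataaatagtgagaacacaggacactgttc
Ttn, chr2:76982548-76982797, minus strand: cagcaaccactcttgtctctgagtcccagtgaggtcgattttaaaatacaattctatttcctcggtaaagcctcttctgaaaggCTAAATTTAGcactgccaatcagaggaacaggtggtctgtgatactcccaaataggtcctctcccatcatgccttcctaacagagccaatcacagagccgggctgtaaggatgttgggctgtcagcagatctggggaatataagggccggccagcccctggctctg

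The MEF2 match lay 74 to 65 bases before the start of Xirp2, 109 to 100 bases before that of Synpo2l, 90 to 81 bases before that of Mybpc3 and 166 to 157 bases before that of Ttn. Both MCAT elements of Trim54 lay 163 to 158 and 75 to 70 bases before its start. Of the 40 members, 31 had 43 promoter entries in the RefSeq table, and 9 of the 43 entries (20.9%), of 8 genes, held a MEF2 match, against 2.92% of all 32851 promoters of the same length. The MEF2 matches were those of Fhl2, Xirp2, Ttn, Mybpc3, Myoz2, Synpo2, Myom3 and Synpo2l. A CArG box, the site of serum response factor, was found in 7 entries (16.3%) of 5 genes, Fhl2, Nebl, Ldb3, Myom1 and Fhl1, against 1.47% of all promoters. MCAT elements stood in 23.3% of the members' entries and 12.6% of all promoters, TATA-like runs in 34.9% and 22.6%, and the GATA motif AGATAA in 11.6% and 9.99%. Ankrd1 held MCAT elements 210 to 205 and 123 to 118 bases before its start, a GATA motif 47 to 42 bases before it and a TATA-like run 27 to 22 bases before it. Entries of the same gene can overlap, and a match of letters does not show that a factor binds there.

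Together the 40 members made up 2.64, 2.39 and 2.97% of the CM UMIs of the 2n libraries at E16.5, P1 and P5, and 2.16, 2.10 and 2.74% of those of the 4n libraries. Their summed level was highest at P5 in both ploidies and in CPM lowest at P1. The lower value at P1 depends on the scaling. By the median of ratios the sums at E16.5, P1 and P5 were 2.27, 2.60 and 3.49% of the scaled total in 2n. In 4n they were 1.72, 2.10 and 3.13%, so that P1 lay above E16.5 in each ploidy. It also did with a total that omits the 50 top genes, but there the members' sum kept Tpm1, which that total leaves out. A sum without Tpm1 was not made. Tpm1, the alpha-tropomyosin that lies along the thin filament, was the one member among the 50 most abundant genes. It was at 9019.8, 9487 and 12270.5 CPM in the 2n libraries at E16.5, P1 and P5 and 7152, 8393 and 10904 CPM in the 4n libraries. The members' sum went from 26385 CPM at E16.5 to 29750 CPM at P5 in 2n and from 21563 to 27355 CPM in 4n. Most of each rise, and nearly all of it in 2n, was that of Tpm1, so the sums do not show that the members rose alike. At the other end, Myom3, Neb and Myot had 5 to 31, 14 to 17 and 0 to 24 UMIs per library, and they were left out of the counts below, which cover genes with at least 100 UMIs over both libraries of a comparison. Myot, the Z-disc protein myotilin, was not seen among the 13070343 UMIs of E16.5-4n, where the limit of 3 UMIs allows up to 0.230 CPM, and stood at 0.973 to 1.30 CPM in the P1 and P5 libraries.

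**Figure D1:**
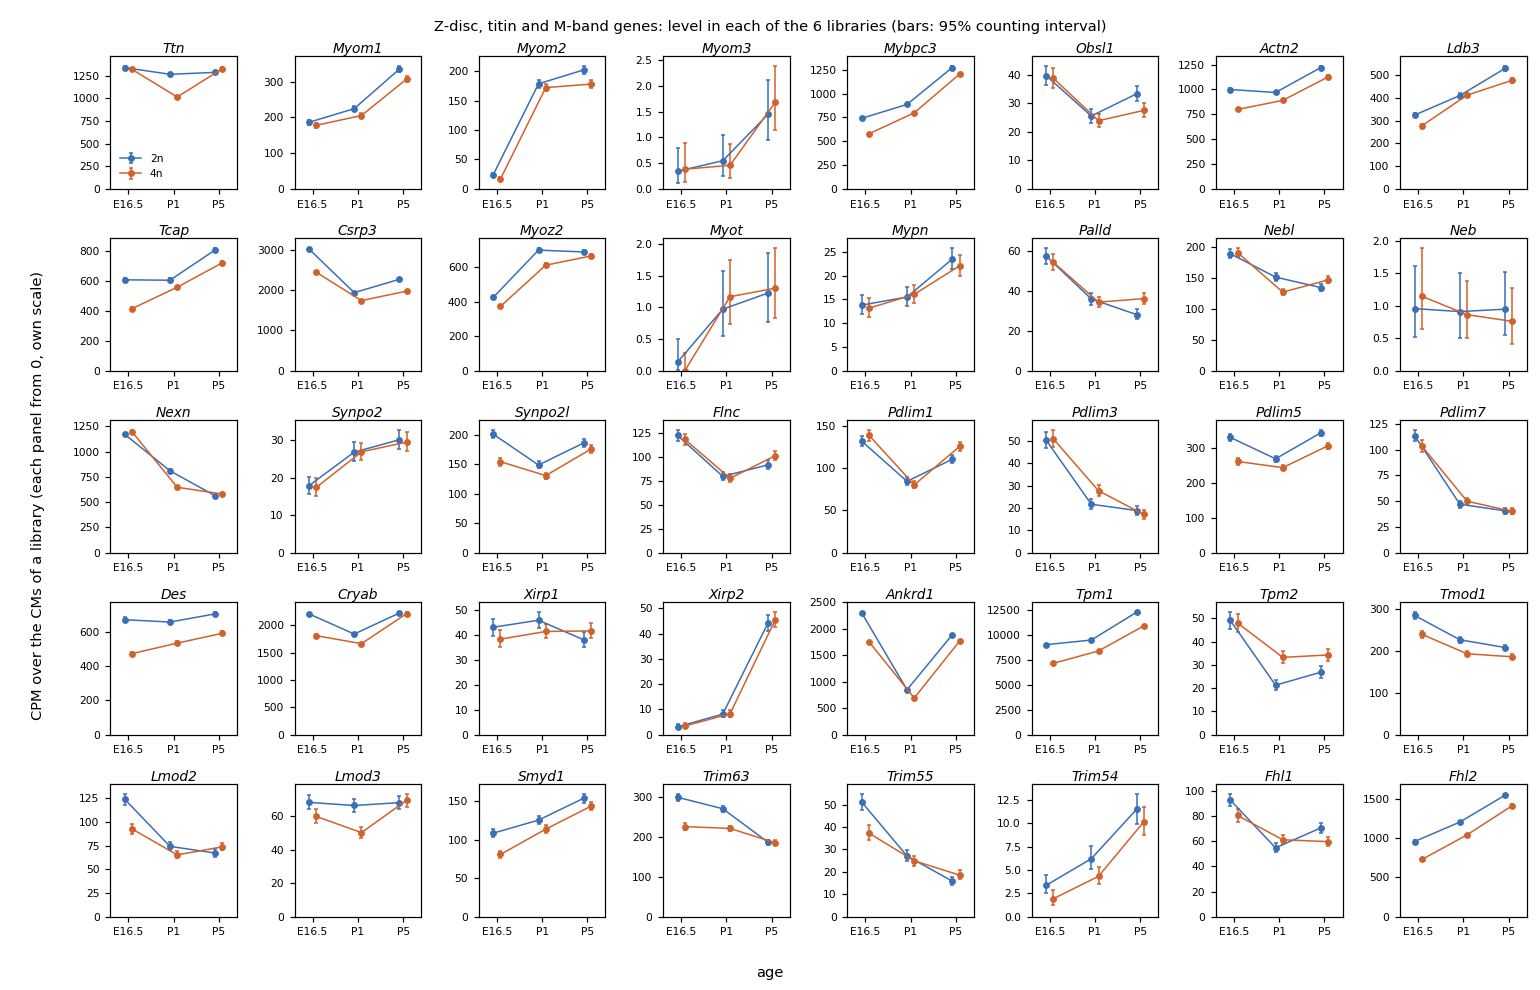
CPM of each of the 40 genes (y axis, from 0, each panel on its own scale) at E16.5, P1 and P5 (x axis), in the 2n (blue) and 4n (orange) libraries; points are single libraries and bars 95% counting intervals. Ankrd1 dips at P1 in both ploidies, Myom2 goes from 24.1 and 16.9 CPM at E16.5 to 179 and 172 CPM at P1, and Xirp2 reaches 44.2 and 45.5 CPM at P5.

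Between E16.5 and P1, the step that spans birth, 2 of 37 members were at least 2-fold higher and 4 at least 2-fold lower in the 2n CMs, against 1.98% and 12.1% of the 9381 genes counted. In the 4n CMs the counts were 3 higher and 2 lower of 37, against 2.89% and 11.6% of 9945 genes. The median log2 ratio of the members was -0.15 in 2n and -0.12 in 4n, and that of all genes -0.34 and -0.30, so that a gene that kept pace with the median gene has a lower CPM at P1. Scaled instead by the median of ratios, the log2 ratio of each gene is higher by about that median, and 10 members in 2n and 6 in 4n have no fixed direction over the scalings. These were Ttn, Actn2, Tcap, Nebl and Des in 2n, Synpo2l in 4n, and Pdlim5, Cryab, Tmod1, Lmod3 and Trim63 in both.

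From P1 to P5, 2 of 37 members were at least 2-fold higher in 2n and 3 of 37 in 4n, against 3.02% of 9220 and 2.4% of 9751 genes. No member was 2-fold lower in either ploidy, against 1.98% and 5.84% of genes. The members' median log2 ratio was 0.27 in 2n and 0.21 in 4n, above the -0.094 and -0.16 of all genes. Both steps use the same P1 libraries, so a value that is low at P1 lowers the first ratio and raises the second.

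**Figure D2:**
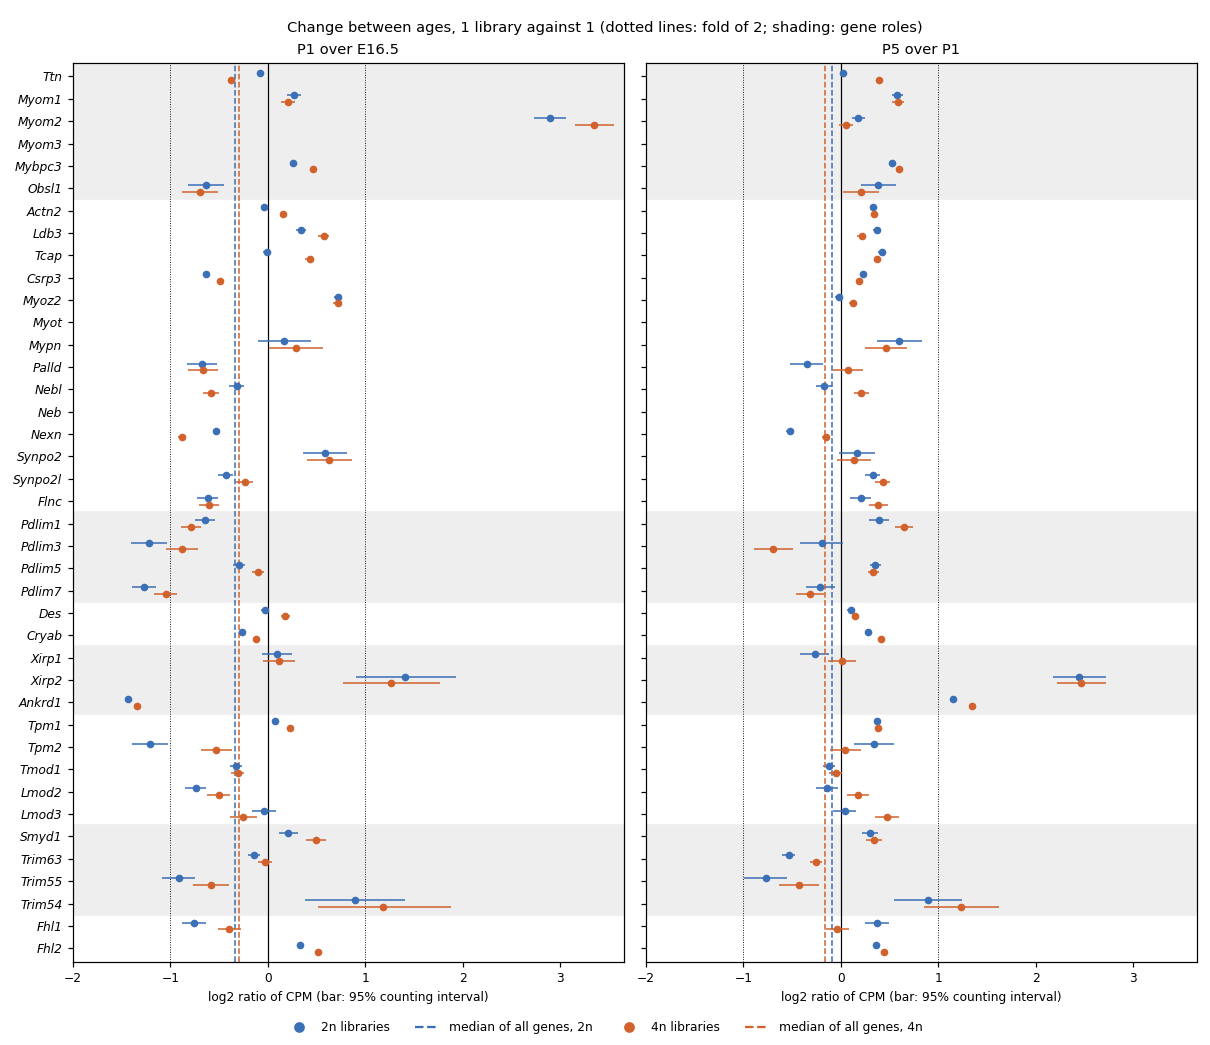
Log2 ratio of CPM (x axis) of P1 over E16.5 (left) and P5 over P1 (right) for each counted member (y axis, by role, shaded in turn), in the 2n (blue) and 4n (orange) libraries; bars are 95% counting intervals, dashed lines the median of all genes and dotted lines a fold of 2. Myom2 stands alone past a log2 ratio of 2 in the left panel, at 2.89 and 3.35, and Xirp2 in the right panel, at 2.44 and 2.47.

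Of the M-band and titin group, Myom2 had the widest change. It encodes a myomesin that cross-links thick filaments at the M-band and lies at chr8:15057653-15133541 (GRCm38). Its level was 24.1, 179 and 202 CPM in the 2n libraries at E16.5, P1 and P5 and 16.9, 172 and 178 CPM in the 4n libraries. All 4 postnatal libraries lay far above both E16.5 libraries, and the 4 differed little from each other. P1 over E16.5 was 7.42-fold in 2n, a log2 ratio of 2.89 (95% interval 2.73 to 3.06), and 10.2-fold in 4n, 3.35 (95% interval 3.15 to 3.55), while the log2 ratios of P5 over P1 were 0.18 and 0.05, the latter of no fixed sign over the scalings.

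Myom1, the other myomesin of the heart, was at 186, 225 and 336 CPM (2n) and 178, 205 and 308 CPM (4n) at E16.5, P1 and P5. Its larger step was the second, with log2 ratios of 0.58 (95% interval 0.52 to 0.64) and 0.58 (95% interval 0.53 to 0.64). In GENCODE a noncoding gene, Gm26561, overlaps Myom1 on the same strand. Mybpc3, the cardiac myosin-binding protein C of the thick filament, was higher at each age in both ploidies, at 740.0, 886 and 1273 CPM (2n) and 578, 798 and 1204 CPM (4n). Ttn, which encodes the elastic filament titin and lies at chr2:76703980-76982547, was at 1341, 1267 and 1289 CPM (2n) and 1322, 1016 and 1329.7 CPM (4n). The values lay between 1267 and 1341 CPM except in P1-4n, which was lower. Obsl1, obscurin-like and a linker of titin and myomesin, was lowest at P1, at 39.7, 25.5 and 33.3 CPM (2n) and 38.8, 23.9 and 27.5 CPM (4n).

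Among the 12 counted Z-disc core genes, which leave out Myot and Neb, none passed a fold of 2 in CPM at either step, in either ploidy. Actn2, the alpha-actinin that cross-links actin at the Z-disc, was at 999, 969.5 and 1220.4 CPM (2n) and 799, 890.2 and 1126 CPM (4n), highest at P5 in each ploidy. Ldb3, a PDZ-LIM protein bound to alpha-actinin, was higher at each age, at 325, 411 and 531 CPM (2n) and 278, 413 and 478 CPM (4n). Tcap, the telethonin cap that ties titin ends together at the Z-disc, was at 609.6, 607 and 810.3 CPM (2n) and 416, 560.1 and 724 CPM (4n). Its E16.5-to-P1 ratio was -0.0067 (95% interval -0.048 to 0.035) in 2n and 0.43 (95% interval 0.38 to 0.48) in 4n, and without the CMs that held at least 2 cycling-marker UMIs it was -0.14 and 0.15. Myoz2, calsarcin, which tethers calcineurin to the Z-disc, made its step between E16.5 and P1 (0.72 and 0.71) and was then level at 689 and 666 CPM at P5; scaled by the median of ratios its first step was past the fold, at 1.06 and 1.04.

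Csrp3, the muscle LIM protein, was the most abundant Z-disc core member, at 3014, 1934 and 2265 CPM (2n) and 2438, 1738 and 1972 CPM (4n). Its CPM was lower at P1 and P5 than at E16.5 in both ploidies. Scaled by the median of ratios, P1 stayed below E16.5 but P5 did not. Nexn, nexilin, an actin-binding protein of the Z-disc, was lower at each age in both ploidies, at 1171, 811 and 563 CPM (2n) and 1197, 647 and 581 CPM (4n), with E16.5-to-P1 ratios of -0.53 (95% interval -0.56 to -0.50) and -0.89 (95% interval -0.92 to -0.85); its second step in 4n (-0.16) changes sign under another scaling. Palld (palladin), Flnc (filamin C) and Nebl (nebulette) were also lower at P1 than at E16.5 in both ploidies, by log2 ratios of -0.68 and -0.66, -0.62 and -0.61, and -0.32 and -0.59; the 2n ratio of Nebl turns positive under another scaling. Synpo2, an actin-bundling protein also called myopodin, went the other way, at 17.9, 26.9 and 30.2 CPM (2n) and 17.4, 27.0 and 29.6 CPM (4n). Mypn, myopalladin, was at 13.2 to 16.1 CPM at E16.5 and P1 and at 23.5 and 22.1 CPM at P5. Synpo2l, the related cytoskeletal heart-enriched protein, was lowest in CPM at P1 in each ploidy, at 201, 149 and 186 CPM (2n) and 154, 131 and 176 CPM (4n), with a first step in 4n (-0.24) that changes sign under another scaling.

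The 4 PDZ-LIM genes, whose proteins bind alpha-actinin through a PDZ domain and kinases or other partners through LIM domains, were all lower in CPM at P1 than at E16.5, although Pdlim5, at -0.30 and -0.10, changes sign under another scaling. Pdlim7, known as enigma, was at 114, 47.1 and 40.6 CPM in the 2n libraries at E16.5, P1 and P5 and 103, 49.99 and 40.1 CPM in the 4n libraries. Both E16.5 libraries lay above 100 CPM and all 4 later ones at or below 50 CPM, with log2 ratios of -1.27 (95% interval -1.40 to -1.15) and -1.05 (95% interval -1.17 to -0.93) at the first step. Scaled by the median of ratios, these were -0.93 and -0.72, below a fold of 2. Pdlim3, the actinin-associated LIM protein, was at 50.3, 21.6 and 18.9 CPM (2n) and 50.9, 27.7 and 17.1 CPM (4n) and passed the fold in 2n alone, at -1.22 (95% interval -1.40 to -1.03) against -0.88 (95% interval -1.05 to -0.71) in 4n. The 2n value fell short of the fold by the median of ratios, at -0.87, and without the 50 top genes, at -0.98. The difference between the ploidies was not tested, and without CMs that held cycling or non-myocyte marker UMIs the 4n value was -1.10.

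Pdlim1 and Pdlim5 were higher at P5 than at P1, unlike Pdlim3 and Pdlim7. Pdlim1 was at 131, 84.2 and 110.2 CPM (2n) and 138, 80.0 and 125 CPM (4n), and Pdlim5, which brings protein kinase C to the Z-disc, at 329.6, 269 and 343 CPM (2n) and 261, 243 and 306 CPM (4n). Their P1-to-P5 ratios were 0.39 and 0.65 for Pdlim1 and 0.35 and 0.33 for Pdlim5, while those of Pdlim3 were -0.20 and -0.69 and those of Pdlim7 -0.21 and -0.32.

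Des, the intermediate filament protein desmin that links Z-discs of neighbouring myofibrils, stayed between 473 and 706 CPM, at 672, 658 and 706 CPM (2n) and 473, 535 and 592 CPM (4n). Cryab, the chaperone alpha-B crystallin that binds desmin, stayed between 1664 and 2225 CPM and was lowest in CPM at P1 in each ploidy, a first step that changes sign under another scaling.

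The Xin and ankyrin repeat genes held the members with the widest changes after birth. Xirp2, an actin-binding Xin-repeat protein at chr2:67446002-67526614, was at 3.08, 8.15 and 44.2 CPM in the 2n libraries at E16.5, P1 and P5 and 3.44, 8.24 and 45.5 CPM in the 4n libraries. The pairs of libraries at E16.5, P1 and P5 did not overlap in level, and the ploidies were close at each age. Its log2 ratio was 1.40 (95% interval 0.91 to 1.93) and 1.26 (95% interval 0.77 to 1.77) at the first step and 2.44 (95% interval 2.18 to 2.72) and 2.47 (95% interval 2.22 to 2.72) at the second, or 5.43-fold and 5.52-fold at the second. The E16.5 level rests on 45 UMIs in each library, and with every CM thinned to 1000 UMIs the first 4n ratio was 0.77, below a fold of 2. The related Xirp1 stayed at 38.0 to 45.9 CPM in all 6 libraries; in GENCODE the immune gene Cx3cr1 overlaps it on the same strand.

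Ankrd1, the cardiac ankyrin repeat protein that binds titin near the Z-disc and also enters the nucleus, lies at chr19:36111961-36120099. Its level was 2298, 849 and 1887 CPM in the 2n libraries at E16.5, P1 and P5 and 1754, 693 and 1765 CPM in the 4n libraries. It was the one counted member past a fold of 2 in both directions, lowest in both P1 libraries and, in CPM, close to its E16.5 level again at P5. P1 was 2.71-fold below E16.5 in 2n (-1.44 (95% interval -1.47 to -1.41)) and 2.53-fold below it in 4n (-1.34 (95% interval -1.37 to -1.31)), and P5 was 2.22-fold (1.15 (95% interval 1.12 to 1.18)) and 2.55-fold (1.35 (95% interval 1.32 to 1.38)) above P1. Across all scalings and subsets of CMs tried the 4 ratios kept their direction and stayed past a fold of 2.

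Among the thin filament genes, Tpm1 was higher at P5 than at P1, by log2 ratios of 0.37 and 0.38. Tpm2, beta-tropomyosin, known from slow skeletal and smooth muscle as well, was at 49.2, 21.3 and 26.9 CPM in the 2n libraries at E16.5, P1 and P5 and 48.0, 33.3 and 34.3 CPM in the 4n libraries. Its E16.5-to-P1 ratio was -1.21 (95% interval -1.40 to -1.02) in 2n and -0.53 (95% interval -0.69 to -0.37) in 4n, and -0.86 and -0.20 by the median of ratios, both short of the fold. Non-myocyte markers stood at 1220 CPM in P1-4n against 212 CPM in P1-2n, and without CMs that held cycling or non-myocyte marker UMIs the ratios were -1.25 and -1.22. The tropomyosins are close paralogs, and how shared reads were split was not tested.

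Tmod1, tropomodulin, which caps the pointed end of the thin filament, was lower at each age in both ploidies, at 285, 227 and 208 CPM (2n) and 239.6, 193 and 186 CPM (4n), although its first step, and the second in 4n, change sign under another scaling. The leiomodins lengthen the filament at the same end. Lmod2, the main cardiac one, was at 124, 74.2 and 67.2 CPM (2n) and 92.7, 65.2 and 73.8 CPM (4n). In CPM it was highest at E16.5 in each ploidy, which in 4n does not hold by the median of ratios. Lmod3 was at 50.3 to 69.7 CPM in all libraries and lowest in P1-4n.

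Of the genes of assembly and turnover, the muscle RING-finger ligases moved in different directions. Trim54, which binds microtubules and Z-discs, was the scarcest of them, at 3.35, 6.20 and 11.5 CPM in the 2n libraries at E16.5, P1 and P5 and 1.91, 4.32 and 10.2 CPM in the 4n libraries. It was higher at each later age in both ploidies, with log2 ratios of 0.89 (95% interval 0.38 to 1.41) and 1.18 (95% interval 0.52 to 1.88) and then 0.89 (95% interval 0.54 to 1.25) and 1.23 (95% interval 0.86 to 1.62). The first 4n ratio rests on 25 and 85 UMIs and was 0.24 with every CM thinned to 1000 UMIs; the first 2n ratio was past the fold by the median of ratios, at 1.23. Trim55 did not reach a fold of 2 at a single step but was lower at each age, at 51.1, 27.1 and 15.8 CPM (2n) and 37.3, 24.9 and 18.5 CPM (4n). Trim63, the ligase best known for atrophy, was at 299, 270.2 and 186 CPM (2n) and 225, 221 and 185 CPM (4n). Smyd1, a methyltransferase needed for myosin assembly, was higher at each age, at 109, 126 and 154 CPM (2n) and 81.0, 114 and 144 CPM (4n).

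The LIM-only genes, whose proteins bind titin, parted as well. Fhl2 was higher at each age, at 957, 1205 and 1549 CPM (2n) and 728, 1042 and 1415 CPM (4n). Fhl1 was lower at P1 than at E16.5 in both ploidies, at 92.9, 54.8 and 70.7 CPM (2n) and 80.6, 61.2 and 59.7 CPM (4n).

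A list of 84 other sarcomere, costamere and chaperone genes, 83 of them found, was read beside the members. At the first step 3 of 66 were 2-fold higher and 11 lower in 2n, against 1.98% and 12.1% of all genes. In 4n 4 of 67 were higher and 3 lower, against 2.89% and 11.6%. The list's median log2 ratios were -0.30 in 2n and -0.25 in 4n. Itga7, the laminin-binding integrin of the muscle membrane, was at 2.46 and 7.97 CPM in 2n and 3.14 and 11.5 CPM in 4n, and Pdlim4 and Ablim1 also passed the fold upward in both ploidies (1.20 and 1.43; 1.33 and 1.03). Lmcd1, a LIM protein that binds GATA factors, was lower by log2 ratios of -1.98 and -2.08, Jsrp1 by -2.39 and -1.64, and Csrp1, a smooth muscle relative of Csrp3, by -1.40 and -1.19. At the second step 4 of 65 were higher and 1 lower in 2n, against 3.02% and 1.98% of all genes. In 4n 5 of 70 were higher and 4 lower, against 2.4% and 5.84%. The list's medians were 0.011 in 2n and -0.045 in 4n. Mybpc2, a myosin-binding protein C of fast skeletal muscle, was at 1.40 and 7.59 CPM in 2n and 1.42 and 6.85 CPM in 4n. Ankrd23, a relative of Ankrd1 that also binds titin, had ratios of 1.95 and 1.98, the chaperone Hspb8 1.25 and 1.25, and Itga7 1.77 and 1.21. Myoz1, the skeletal relative of Myoz2, went down at -1.82 and -1.64.

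Between the ploidies the members differed less than between ages. No member was 2-fold higher or lower in 4n than in 2n CMs at any age, where at E16.5 4.64% of all genes were higher and 0.0208% lower. For P1 these shares were 5.23% and 0.0%, and for P5 they were 1.87% and 0.407%. Most members lay slightly below 0: 31 of 35 counted were lower in 4n at E16.5, 29 of 37 at P1 and 25 of 37 at P5, against 45.4, 41.4 and 46.4% of all genes. The members' median log2 ratio was -0.23, -0.14 and -0.083 at the 3 ages, beside 0.033, 0.049 and 0.019 for all genes.

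At E16.5 the lowest ratio of a counted member was that of Tcap, at -0.55 (95% interval -0.60 to -0.50). Myom2 was next, at -0.51 (95% interval -0.76 to -0.26), then Des, at -0.50 (95% interval -0.55 to -0.46), Trim55, at -0.46 (95% interval -0.62 to -0.29), and Smyd1, at -0.42 (95% interval -0.54 to -0.31). Nexn, Ttn, Nebl and Pdlim3 were close to 0, at 0.032, -0.021, 0.014 and 0.016. Trim54, at 1.91 CPM in 4n against 3.35 CPM in 2n, on 25 and 49 UMIs, fell short of the count minimum. The library labelled 4n held cycling markers at 3982 CPM and non-myocyte markers at 1070 CPM, against 884 and 291 CPM in 2n. With the non-myocyte filter alone, 30 of 35 members were lower in 4n, at a median of -0.24, against 51.0% of all genes. The cycling filter alone also gave 30 of 35, at a median of -0.21, against 46.1% of all genes. Leaving out CMs with at least 2 UMIs of either list kept 1106 of 4880 4n and 3739 of 5699 2n CMs. Tcap was then at -0.18, Des at -0.24 and Myom2 at 0.028. The members' median was -0.074 beside -0.019 for all genes, with 25 of 35 members lower against 53.0% of all genes. Trim63 and Trim55 were then the lowest counted members, at -0.41 and -0.42 against -0.41 and -0.46.

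At P1 the highest ratio was that of Tpm2, at 0.64 (95% interval 0.45 to 0.84), followed by Pdlim3, at 0.35 (95% interval 0.16 to 0.55). Both were close to 0 or below it once CMs with non-myocyte or cycling UMIs were left out, at -0.13 and 0.11; with the non-myocyte filter alone they were 0.069 and 0.097. Trim54 was the lowest, at -0.52 (95% interval -0.95 to -0.092), on 85 and 102 UMIs. Lmod3, Nexn and Ttn were also lower in 4n, at -0.40 (95% interval -0.53 to -0.28), -0.32 (95% interval -0.36 to -0.29) and -0.32 (95% interval -0.35 to -0.29), and stayed at -0.32, -0.30 and -0.22 under both filters. Among the other sarcomere genes, the cytoskeletal Tpm4 (2.03), Flna (2.04) and Pdlim2 (3.30) were past the fold at P1, and Tmod3 (1.44) and Tpm4 (1.03) at E16.5; these are known from non-muscle cells, and no gene of that list passed the fold at P5.

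At P5 Palld and Tpm2 were the highest counted members, at 0.36 (95% interval 0.19 to 0.53) and 0.35 (95% interval 0.18 to 0.52). Obsl1 and Des were the lowest counted ones, at -0.28 (95% interval -0.45 to -0.10) and -0.25 (95% interval -0.29 to -0.22). With cycling and non-myocyte CMs left out, 21 of 37 members were higher and 16 lower, against 25 lower with all CMs. Of all genes 62.0% were lower with those CMs left out and 46.4% with all CMs, so the members were lower more often than genes at large with all CMs and less often with the filter.

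**Figure D3:**
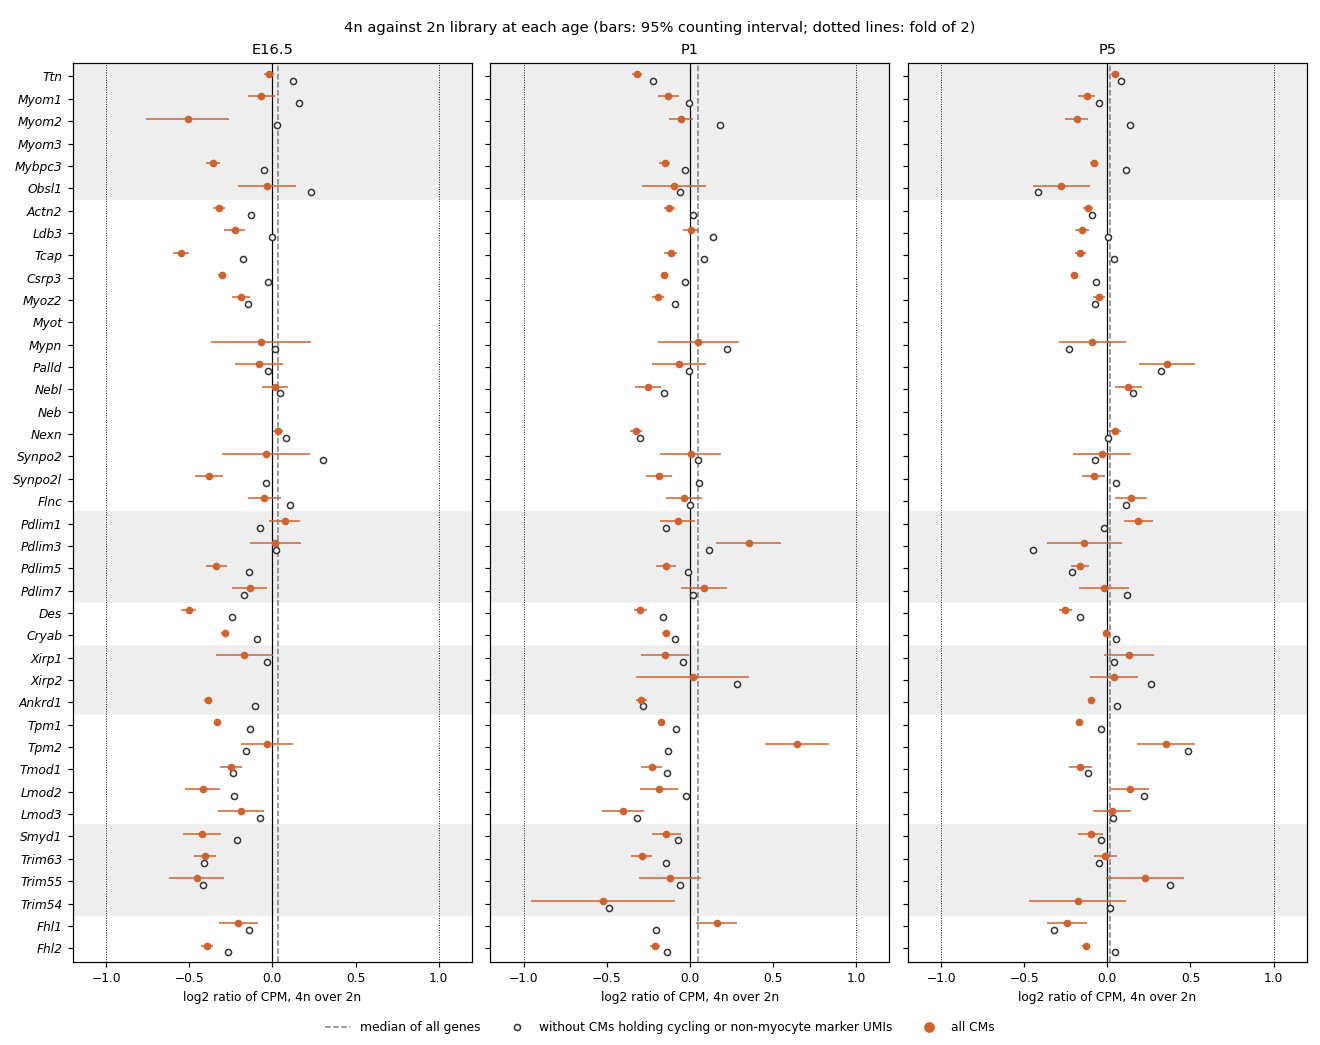
Log2 ratio of CPM of the 4n over the 2n library (x axis) at E16.5, P1 and P5 for each counted member (y axis); orange points are all CMs with 95% counting intervals, open points the CMs without 2 UMIs of cycling or non-myocyte markers, the dashed line the median of all genes and dotted lines a fold of 2. Every point lies inside the dotted lines, and at E16.5 Tcap moves from -0.55 to -0.18 between filled and open points.

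The cycling state was then compared within each library, where age and ploidy gate were the same. The 2n and 4n libraries of an age share litters, so the 6 libraries are not 6 independent samples. CMs were thinned to 1000 UMIs each, and those with at least 3 of the 1000 from the 24 cycling markers were set against those with none. There were 611, 93 and 167 cycling CMs in the 2n libraries at E16.5, P1 and P5 and 2215, 305 and 1028 in the 4n libraries, and 1635 to 5997 CMs without such a UMI. The 28 members counted here had at least 100 thinned UMIs over both groups of CMs in every library. Of these, 5 were lower in cycling CMs with an interval clear of 0 in all 6 libraries. None was higher by that rule. Over the 2577 genes counted the shares were 1.47% and 3.61%. Those genes were not matched to the members in abundance, and a gene with more UMIs has a narrower interval. The 5 were Tcap, Synpo2l, Csrp3, Tpm1 and Mybpc3.

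Tcap was furthest apart. Its level was 378 against 679 CPM (cycling against none) in E16.5-2n, 305 against 536 CPM in E16.5-4n, 247 against 648 CPM in P1-2n, 216 against 625 CPM in P1-4n, 269 against 928 CPM in P5-2n and 355 against 918 CPM in P5-4n. In the order of the 3 ages in 2n and then in 4n its log2 ratios were -0.85, -1.39, -1.78, -0.81, -1.53 and -1.37. Synpo2l followed, with ratios of -0.69, -1.56, -1.53, -0.89, -1.40 and -0.87 in the same order; in P1-2n this rests on 5 UMIs in the cycling CMs. Both were lower in 6 of 6 libraries, at each age and in both gates, and also where CMs with non-myocyte UMIs were left out (Tcap -1.87 to -0.81, Synpo2l -1.78 to -0.75).

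Csrp3 (median -0.47, range -0.67 to -0.30), Tpm1 (median -0.40, range -0.58 to -0.24) and Mybpc3 (median -0.35, range -0.52 to -0.29) differed less but in every library. In all, 17 of the 28 members had all 6 ratios below 0, against 12.8% of the 2577 genes. The 12 whose intervals were not all clear of 0 were Ttn, Myom1, Actn2, Ldb3, Pdlim7, Des, Cryab, Xirp1, Tmod1, Lmod2, Trim63 and Fhl2. Among them Ldb3 (median -0.45, range -0.60 to -0.21), Des (median -0.36, range -0.60 to -0.073) and Cryab (median -0.20, range -0.34 to -0.13) had 5 intervals below 0, Actn2 (median -0.21, range -0.42 to -0.083) and Fhl2 (median -0.29, range -0.76 to -0.13) had 4, and Ttn (median -0.17, range -0.20 to -0.11) and Trim63 (median -0.28, range -0.88 to -0.15) had 3. Pdlim1 was the one member higher in cycling CMs in 6 of 6 libraries (median 0.60, range 0.19 to 1.14), against 14.9% of genes, with 4 intervals above 0, and its ratios in the same order were 0.52, 1.14, 0.74, 0.19, 0.25 and 0.67. The remaining members had mixed signs. Ankrd1 was lower in 5 of 6 libraries, with 5 intervals below 0 (median -0.42, range -0.89 to 0.10). Flnc, Pdlim5, Lmod3 and Smyd1 were also lower in 5, with 1 or 2 intervals below 0 and medians of -0.26, -0.091, -0.15 and -0.31. Palld was lower in 4 (median -0.44) and Fhl1 in 3 (median 0.0073). Myoz2, Nebl and Nexn had medians of 0.042, 0.15 and 0.13. Of the small Z-disc adaptors, Tcap was thus lower in all 6 libraries, while Myoz2 was lower in 3 of them. Doublets were not called, and their part in these CMs was not tested.

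**Figure D4:**
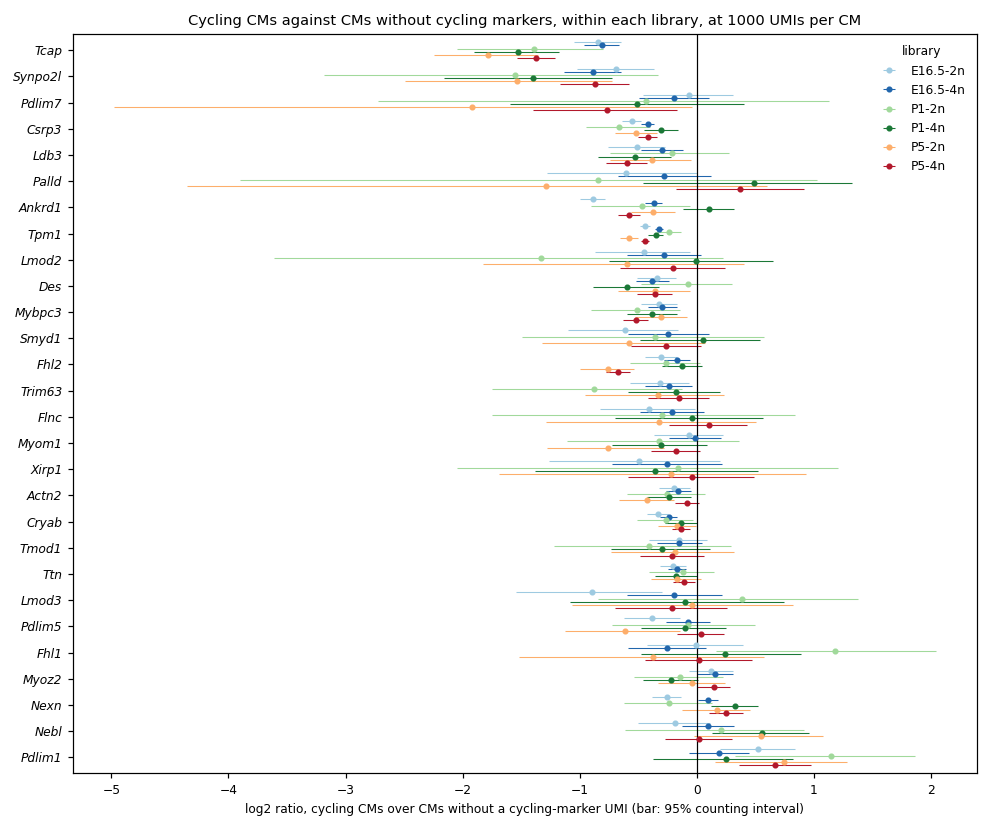
Log2 ratio of CPM of cycling CMs over CMs without a cycling-marker UMI (x axis) for the 28 members (y axis, ordered by median), 1 point per library in 6 colours with 95% counting intervals, at 1000 UMIs per CM. Tcap and Synpo2l lie left of 0 in all 6 libraries, with medians of -1.38 and -1.14, and Pdlim1 right of 0, with a median of 0.60.

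Within a library the members varied between CMs to unequal degrees. At 1000 UMIs per CM, 19 members had a mean of at least 0.1 UMI in every library, and for all but 5 of them the variance was 0.975 to 1.16 times the mean, close to counting error alone. The exceptions were Ankrd1, Tpm1, Csrp3, Tcap and Fhl2. Ankrd1 had a variance 4.70, 3.702 and 3.001 times its mean in the 2n libraries at E16.5, P1 and P5 and 3.58, 3.11 and 2.79 times in the 4n libraries. The median gene with a mean of at least 0.1 UMI per CM had 1.02 to 1.03. Of the 1062 to 1389 such genes of a library, 8 to 15, Ankrd1 itself among them, had a ratio at or above that of Ankrd1. These genes were not matched to Ankrd1 in abundance, and for the same relative spread the ratio rises with the mean. At P1 the tenth of CMs with the most Ankrd1 held 64.9% (2n) and 64.4% (4n) of its UMIs, and 30.3 and 27.8% of CMs had any. At E16.5 the tenth held 45.6 and 44.6%, and 59.5 and 57.0% of CMs had at least 1 UMI. For P5 these values were 39.9 and 40.3%, and 63.9 and 62.3%. Both measures also depend on the mean, which was 0.722 and 0.572 UMIs per CM at P1 and 1.79 and 1.68 at P5. A change in concentration between CMs apart from the level was not tested.

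Tpm1 followed, at 1.67 to 2.51 times the mean, then Csrp3, at 1.37 to 1.76, Tcap, at 1.21 to 1.43, and Fhl2, at 1.15 to 1.35. This order is not one of relative spread, since the ratio also depends on abundance. In E16.5-2n the mean was 9.02 UMIs per CM for Tpm1 and 0.623 for Tcap. A ratio near 1 in a scarce member does not show that its CMs are alike. Titin stayed at 1.06 to 1.16, with 62.9 to 72.3% of CMs holding at least 1 UMI at that depth. Counted together, the 40 genes gave a median of 20 to 29 of 1000 UMIs per CM over the libraries, lowest in P1-4n and highest in P5-2n. In P5-2n the mean was 29.7 UMIs for the 40 genes and 12.4 for Tpm1 alone. The middle 90% of CMs ran from 11 to 32 UMIs in P1-4n and from 17 to 45 UMIs in P5-2n, so the libraries overlapped widely cell by cell.

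**Figure D5:**
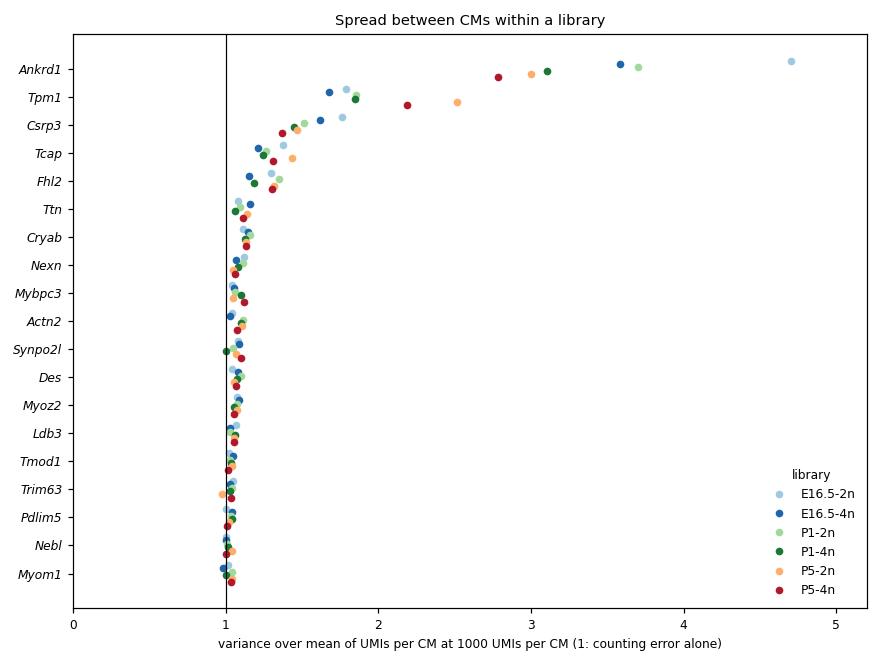
Variance over mean of UMIs per CM (x axis, 1 is counting error alone) for 19 members (y axis), 1 point per library in 6 colours, every CM thinned to 1000 UMIs. Ankrd1 stands apart at 2.79 to 4.70 and Tpm1 at 1.67 to 2.51, while most other members sit near 1. The ratio also depends on a gene's mean, which differs between members.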

How the data were processed

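UMI counts per gene and cell were deposited by the authors as 1 sparse matrix per library. Per the study's methods and the labels, Cell Ranger with STAR (versions not given in the sources used here) mapped the reads to GRCm38 (mm10) and collapsed them to strand-specific UMIs, and the labels name Seurat 2.3.0. Droplet counts carry free RNA and doublets; no doublet was called or removed here. The authors' marker table (their own comparison of E16.5 and P5 cells) and a background gene list were not used, and further libraries of the study were not analysed here.

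CMs had at least 1 UMI of each of 4 markers; the counts of these CMs were added up per gene and divided by the library's CM total (13070343 to 19665830 UMIs). With 1 library per condition no test and no p-value was computed. Levels carry exact Poisson intervals and log2 ratios exact binomial intervals (95%), which cover counting error only; a count of 0 was limited at 3 UMIs. Genes with at least 100 UMIs over both libraries counted as past the fold at a ratio of 2. The 7 comparisons were P1 over E16.5 and P5 over P1 in each ploidy, and 4n over 2n at each age. Cell-level measures used 1000 UMIs drawn per CM, which left out 0 to 700 CMs per library. Python 3.11.15, numpy 2.4.6, pandas 2.3.3, scipy 1.17.1 and matplotlib 3.10.9 were used, and the ratios and intervals were tested on simulated counts. Gene positions came from GENCODE vM21 (GRCm38), matched by identifier for all 40 members, which is a later annotation than the one the counts were made with.

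All 40 members may be named; of the other sarcomere list, those past the fold in both ploidies (at most 5 per direction and age step) or in a ploidy comparison (at most 3). The members, lists and motifs were chosen with earlier results of these data known. Alternatives changed the scaling, the CM filter, the depth, the count minimum, the fold and the CMs kept.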

Additional observations from a re-analysis of the deposited data

How the results depend on the processing

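Over all alternatives, 227 of the counts and member medians stayed close to their main values and 39 moved. Part of the 227 could not move. A scaling by 1 factor per library leaves the difference between the members' median and that of all genes unchanged. Counts between the ploidies that were 0 and stayed 0 are also among the 227. Of the other values followed, 2271 stayed close and 809 moved. The members' median relative to all genes changed sign in 1 comparison, 4n over 2n at P5. Scaled by the median of ratios, P1 over E16.5 gave 4 members higher and 1 lower in 2n and 1 lower in 4n; with a total that omits the 50 top genes it gave 2 lower in 2n and 1 lower in 4n. At a fold of 1.5, the first step gave 5 higher and 12 lower in 2n and 5 and 9 in 4n, the second 4 higher and 1 lower in 2n and 5 and 1 in 4n, and P1-4n over P1-2n 1 higher. The share of all genes past the fold is given only for a fold of 2 in CPM with all CMs. Without that share, the counts in this paragraph show how the calls move and are no result about the members. For P1-4n over E16.5-4n, 1 member, Myom2, was higher when each cell's CPM was averaged, when CMs were thinned to 1000 UMIs, without CMs holding 2 cycling-marker UMIs, and without CMs holding 2 UMIs of cycling or non-myocyte markers, where 4 were lower; Xirp2 and Trim54, on 45 and 25 UMIs in E16.5-4n, dropped below the fold.

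The members' median minus that of all genes is given next. For P1 over E16.5 it was 0.296 in 2n with no minimum beyond 3 UMIs, and in 4n 0.212 thinned, 0.111 at a minimum of 30 UMIs, 0.247 without CMs with non-myocyte UMIs, 0.112 without cycling CMs and 0.064 without both. For P5 over P1 in 2n it was 0.330 with each cell's CPM averaged, 0.298 thinned, 0.409 without cycling CMs and 0.419 without both; in 4n it was 0.425 thinned, 0.436 with no minimum, 0.309 without CMs with non-myocyte UMIs, 0.560 without cycling CMs and 0.485 without both. For 4n over 2n it was -0.055 at E16.5 without both, -0.060 at P1 without CMs with non-myocyte UMIs and -0.045 without both, and at P5, where it was -0.101 with all CMs, 0.060 without cycling CMs and 0.086 without both. The filter on both marker lists was chosen after seeing the data; it left out 8.94 to 77.3% of the CMs of a library, and deeper CMs are more likely to hold 2 marker UMIs. Beyond what these alternatives show, the causes were not tested.

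No paired analysis was made. The 2n and 4n libraries of each age, which share litters, are compared with each other as they stand. No fit over ages and ploidies was made. Counts limit Trim54 and Xirp2 at E16.5 and Myom3, Neb and Myot throughout, and no interval covers the spread between animals or sorts.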
